A study of Danio rerio with 4 samples.

Results

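The nuclear-encoded genes of oxidative phosphorylation were taken from the deposited gene table by symbol, as every gene whose name begins as a subunit of respiratory complexes I to IV, of cytochrome c or of ATP synthase begins (nduf followed by a, b, c, s or v, sdh followed by a, b, c or d, uqcr, cox4 to cox8, atp5 and cycs). This gave 98 of the 31953 genes in the table. They comprised 37 genes of complex I, 5 of complex II, 7 of complex III, 2 for cytochrome c, 21 of complex IV (the ndufa4 family included), 15 of ATP synthase (complex V) and 11 assembly factors, which share the symbols' first letters but are not subunits of the finished complexes. Of the 98, 95 were matched to a reference table of gene names, and 30 of those carry another symbol there. In 5 members (cox6a2, cycsa, ndufa9b, ndufs8b and sdhda) the table lists 0 in every library. A further 17 had values above 0 but a mean below 1, and the remaining 76 entered the tests.

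Oxidative phosphorylation takes electrons from NADH (complex I) and succinate (complex II), passes them through complex III and the mobile carrier cytochrome c to oxygen at complex IV, and uses the proton gradient built on the way to make ATP at complex V. Its subunits are encoded by both the nuclear and the mitochondrial genome, and the nuclear ones are expressed in nearly every cell, at high levels in muscle. In mammals some complex IV subunits have a form found in heart and skeletal muscle (COX6A2, COX7A1, COX8B) beside a form found in most tissues, and zebrafish keep further duplicated copies of several subunits.

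The study profiled zebrafish pharyngeal arch cells, sorted for fli1a:GFP together with sox10:DsRed, a combination that marks neural crest-derived cells of the arches, from embryos mutant for genes of Nr2f nuclear receptors or labelled as carrying a transgene to raise one of them. There were 2 libraries of nr2f2; nr2f5 mutants, which the labels say were recognised by ocular coloboma, 1 library labelled sox10:Gal4; UAS:Nr2f5, in which the crest driver sox10:Gal4 is meant to raise Nr2f5, and 1 control library with sox10:Gal4 alone. The UAS:Nr2f5 and control embryos were genotyped from biopsies at 24 hours post fertilization (hpf), and neither the alleles of the mutants nor a driver in them is given. Embryos of all groups grew at 28.5 °C for the first 27 hpf, then more slowly at 22 °C, and were collected on reaching the form of the 36 hpf stage. Each library pooled many embryos, 37 and 84 for the mutants (18858 and 30655 cells), 84 for UAS:Nr2f5 (56866 cells) and 69 for the control (86517 cells), and the mutant figures are not tied to a replicate. The labels do not say that the mutant pools were independent clutches, so a p-value here measures only the spread between these samples, which may be technical.

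Values are given as RPM, reads scaled to 1000000 per library. The UAS:Nr2f5 library was the shallowest, with 1 read worth 0.0987 RPM, against 0.0287 and 0.0441 RPM in the mutants and 0.0334 RPM in the control. Expression of nr2f5 was 12.2 and 14.7 RPM in the mutants, 30.3 RPM in the library labelled UAS:Nr2f5 and 28.8 RPM in the control, so this check of the label showed no excess of nr2f5 over the control (ratio 1.05, 95% counting interval 0.920 to 1.2). All 14 arch neural crest markers were detected in every library, with summed levels of 571 and 579 RPM in the mutants, 247 RPM in the UAS:Nr2f5-labelled library and 389 RPM in the control. The libraries also differed in other cell types. The 27 skeletal muscle markers summed to 89.7 and 124 RPM in the mutants, 9130 RPM in the UAS:Nr2f5-labelled library and 2817 RPM in the control, with only myog at 0 in one mutant, myog, myhz1.2, mylpfb and myod1 at 0 in the other, and none at 0 in the remaining libraries. Markers of epidermis and endoderm summed to 207 and 164 RPM in the mutants, 2112 RPM in the UAS:Nr2f5-labelled library and 754 RPM in the control. Neuron markers summed to 9.69 and 7.76 RPM in the mutants, 95.1 RPM in the UAS:Nr2f5-labelled library and 70.5 RPM in the control, and lens markers to 1.18 and 0.573 RPM in the mutants, 175 RPM in the UAS:Nr2f5-labelled library and 11.2 RPM in the control. Pigment cell and endothelial markers had the same order, while those of red blood cells, glia and heart muscle were lowest in both mutants and highest in the control. The part of these differences in the results below was not tested, and in bulk samples fewer cells of a type and less RNA per cell cannot be told apart.

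The oxidative phosphorylation genes had small differences beside these markers. Their summed level was 906 and 993 RPM in the mutants, 1168 RPM in the UAS:Nr2f5-labelled library and 1077 RPM in the control, with both mutants below the other libraries. Orders of summed levels, here and below, hold on the deposited scale. On the log2(RPM + 1) scale, on which all differences below are given, the median absolute difference between the mutants and the control was 0.25 over the 76 tested members, against 0.28 over all 11391 genes tested. The median absolute difference between the 2 mutants themselves was 0.28 over the members and 0.26 over all genes. Between the UAS:Nr2f5-labelled library and the control the median absolute difference was 0.32 over the members and 0.45 over all genes.

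**Figure D1:**
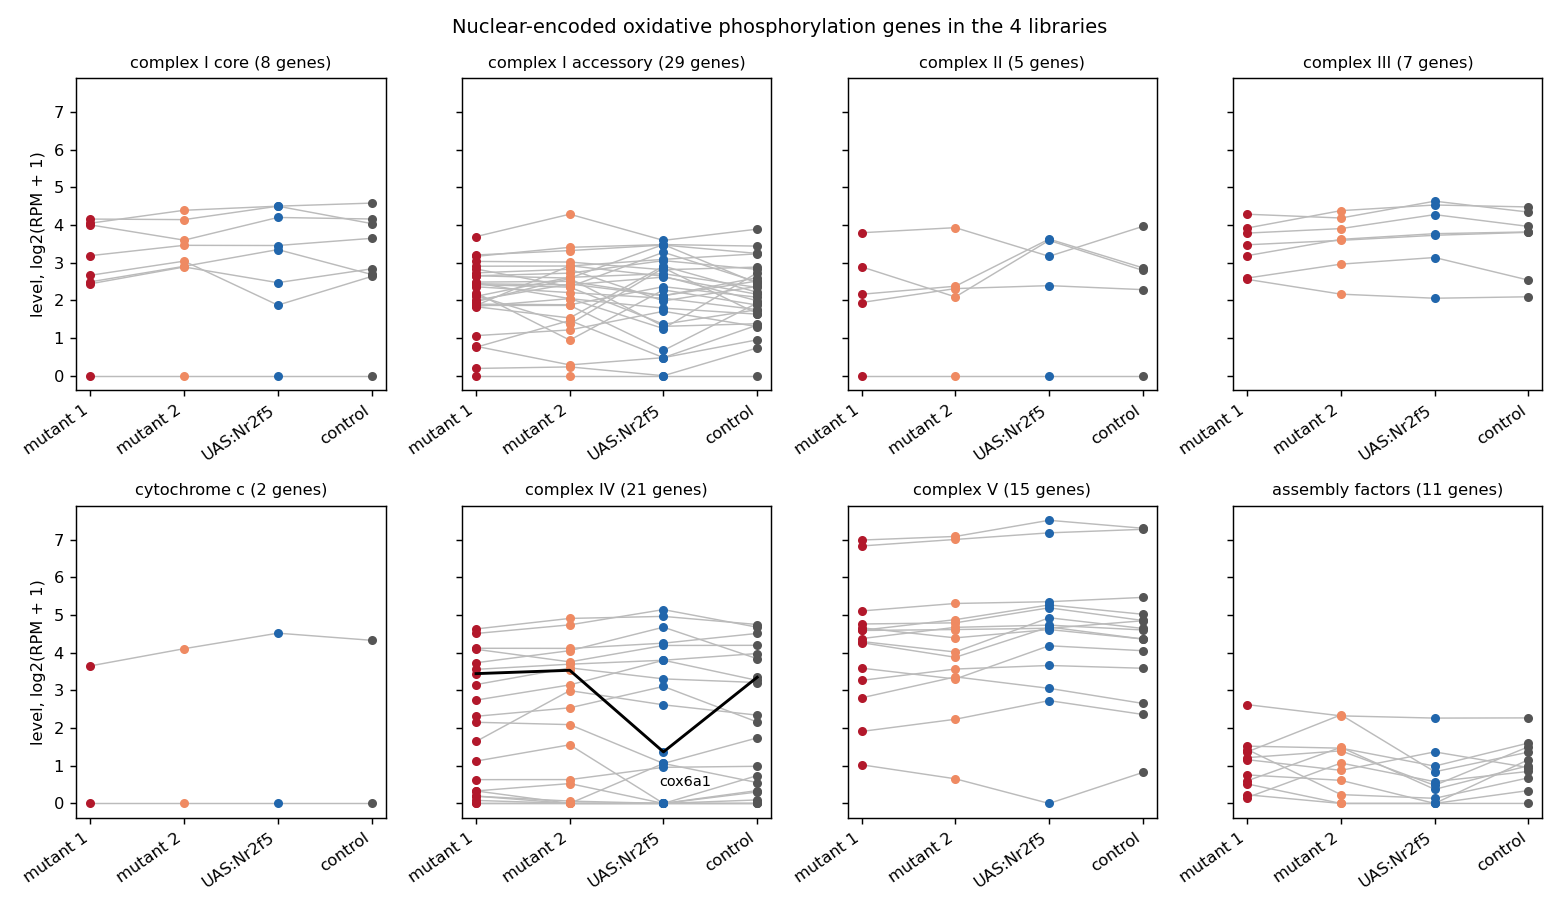
Levels of all 98 genes in log2(RPM + 1) on the vertical axis, in 8 panels by complex, with the libraries in the order mutants, UAS:Nr2f5 and control on the horizontal axis; each point is 1 gene in 1 library and grey lines join a gene's values. Most lines run nearly flat, and the black line of cox6a1 in complex IV dips for UAS:Nr2f5 (1.58 RPM, against 9.18 RPM for the control).

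In the mutants, no member was called as different from the control: limma called 0 of 76 at an adjusted p of 0.05, where 1.04% of all genes tested were called (0.0263% rose and 1.01% fell). At an unadjusted threshold of 0.05 limma passed 1 member, atp5d, and 13.2% of all genes. By size, 0 of 76 members were at least 2-fold higher in both mutants (0.579% of all genes) and 0 were at least 2-fold lower in both (5.36%). In direction, 38 members were lower than the control in both mutants (33.2% of all genes) and 19 were higher in both (39.1%), with a median difference of -0.11 over the members and 0.03 over all genes. The differences ran from -0.61 for atp5d to 0.89 for ndufb7. The members' median was also negative under the 3 other scalings tried (-0.13 to -0.70), and the median of all genes moved to -0.54 when libraries were scaled on the crest markers.

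The UAS:Nr2f5-labelled library and the control have 1 sample each, so their difference has no replicate check and is described by size. Of the 76 members, 2 were at least 2-fold higher in the UAS:Nr2f5-labelled library (ndufa12 and ndufab1b), where 6.79% of all genes were, and 4 were at least 2-fold lower (cox6a1, ndufab1a, ndufa5 and sdhaf2), where 9.17% of all genes were. Of these 4, ndufa5 (0.592 RPM in the UAS:Nr2f5-labelled library) and sdhaf2 (0.395 RPM) passed the filter on low values only through the other libraries. Their low values are thus not read as results. In direction, 45 members were higher (42.4% of all genes) and 31 lower (57.6%), with a median difference of 0.13 over the members and -0.11 over all genes; crest-marker scaling moved these medians to 0.68 and 0.43. The exact 95% counting interval of the ratio, which covers counting error only, lay above 1 for 25 members (22.9% of all genes) and below 1 for 13 members (34.6%).

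The mutants were also compared with the UAS:Nr2f5-labelled library, a comparison that shares the mutant libraries with the first and the UAS:Nr2f5-labelled library with the second. Here limma called 1 member higher in the mutants (cox6a1), where 11.2% of all genes rose, and 2 lower (sdhdb and atp5g3a), where 8.92% of all genes fell, 20.1% being called in either direction. By size, 3 members were at least 2-fold higher in both mutants (9.02% of all genes) and 2 at least 2-fold lower in both (9.79%). The 3 include ndufa5, which passed the filter on low values only through the mutants and the control. The median difference was -0.25 over the members and 0.17 over all genes. In both mutants 48 members lay below the UAS:Nr2f5-labelled library (33.5% of all genes) and 20 lay above it (50.7%).

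**Figure D2:**
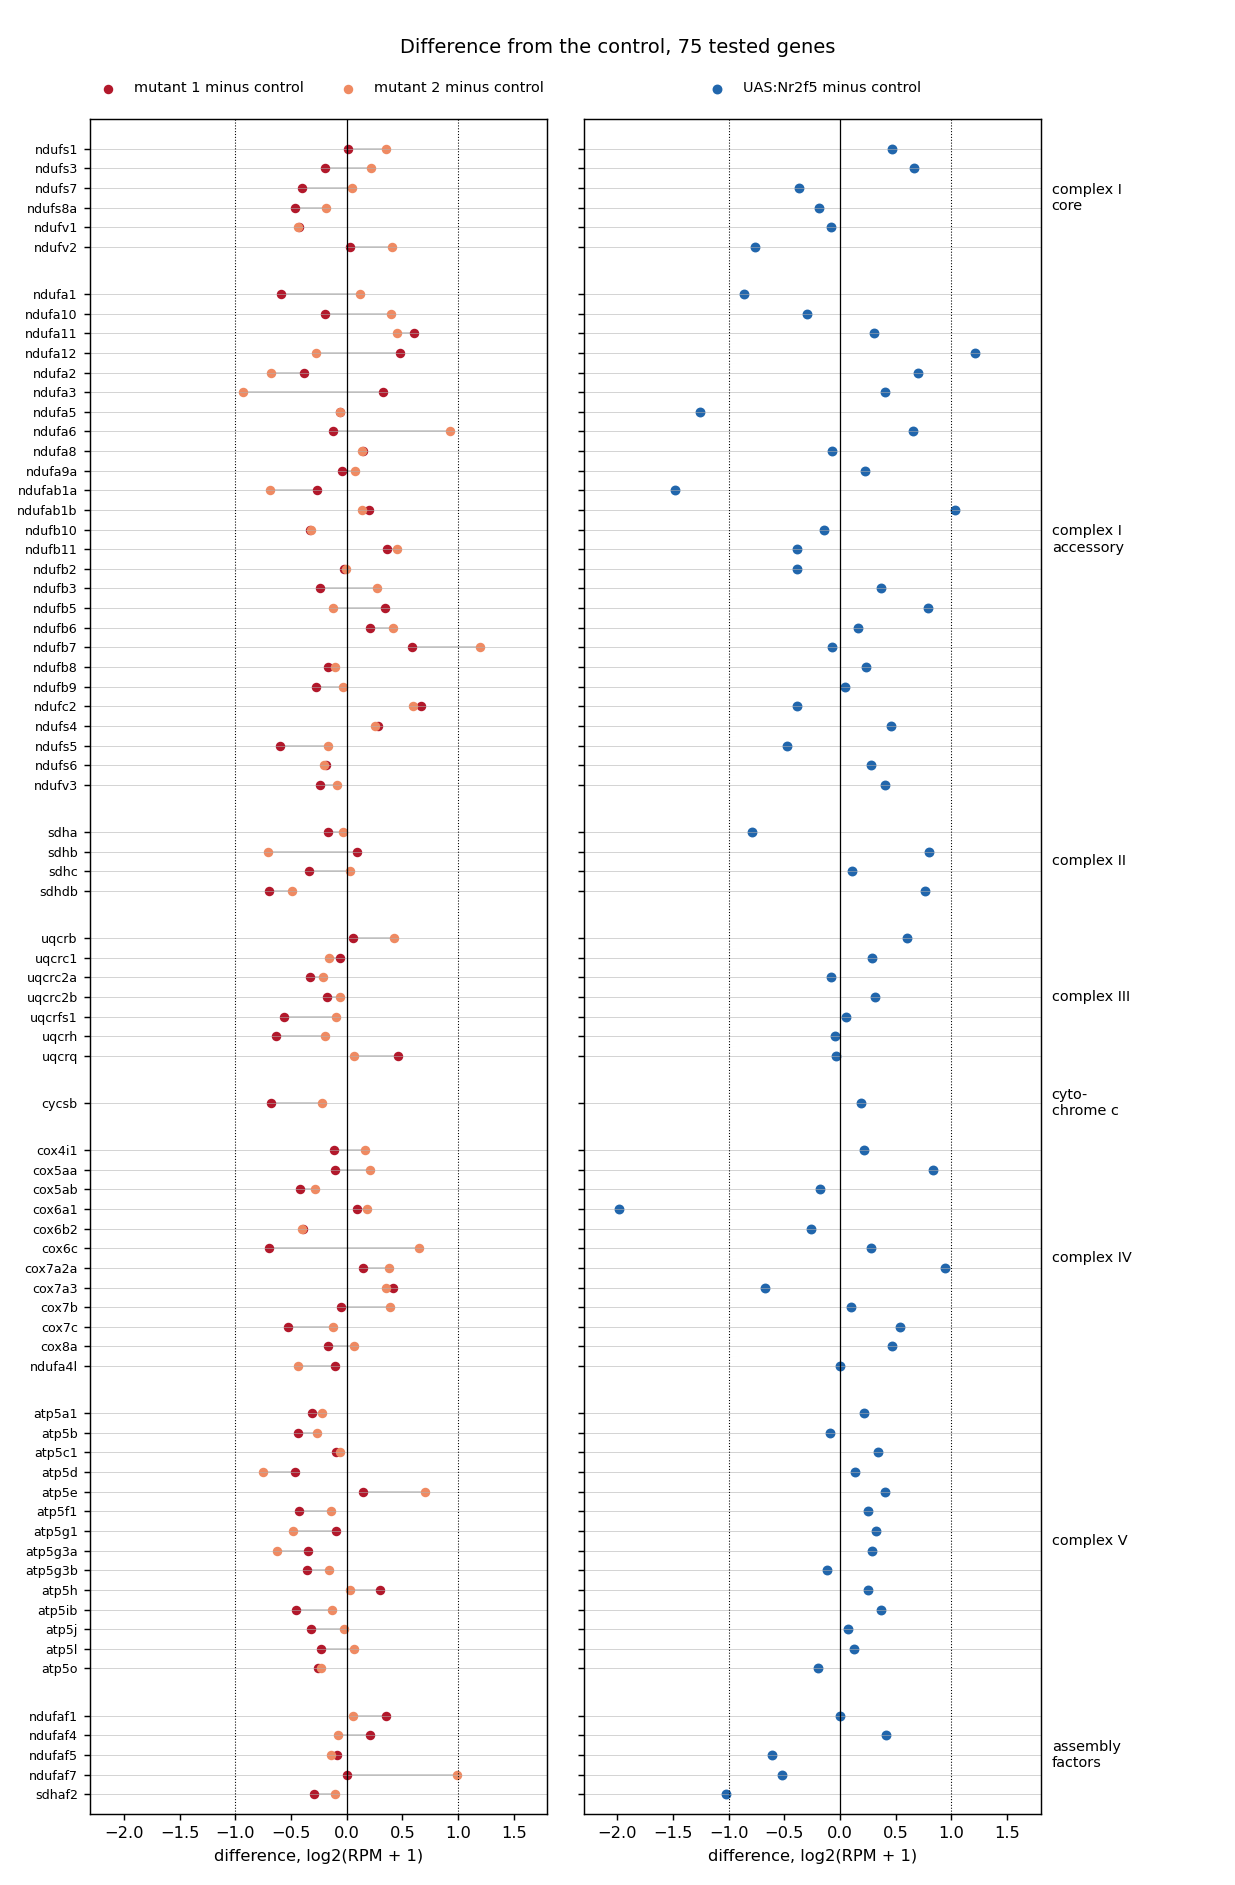
Difference from the control in log2(RPM + 1) for 75 of the 76 tested genes, grouped by complex down the page; the left panel shows each mutant minus the control, with a grey line joining the 2 mutants, the right panel shows UAS:Nr2f5 minus the control, and dotted lines mark a 2-fold difference. No gene drawn passes a dotted line in both mutants, and in the right panel cox6a1 lies farthest from 0 at -1.98.

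Complex I, the NADH dehydrogenase, had 33 tested members. Its summed level was 188 and 207 RPM in the mutants, 218 RPM in the UAS:Nr2f5-labelled library and 203 RPM in the control, with the control between the 2 mutants. Some of its core subunits carry the flavin and the iron-sulfur clusters. Among the core subunits, ndufv1, which binds NADH, had 16.8 and 16.7 RPM in the mutants, 21.6 RPM in the UAS:Nr2f5-labelled library and 22.9 RPM in the control. Both mutants lay below the control for this gene, by a difference of -0.43 that did not pass the test (adjusted p = 0.406, limma). The largest core subunit, ndufs1, had 15.6 and 19.98 RPM in the mutants, 21.6 RPM in the UAS:Nr2f5-labelled library and 15.4 RPM in the control. The first mutant nearly equalled the control, and the difference of 0.18 did not pass the test (adjusted p = 0.813, limma).

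For 2 further core subunits the UAS:Nr2f5-labelled library stood apart in opposite directions. The core subunit ndufs3 had 4.63 and 6.48 RPM in the mutants, 9.18 RPM in the UAS:Nr2f5-labelled library and 5.44 RPM in the control, a ratio of 1.69 between UAS:Nr2f5 and control (interval 1.29 to 2.19). The partner of the NADH-binding subunit, ndufv2, had 5.35 and 7.23 RPM in the mutants, 2.67 RPM in the UAS:Nr2f5-labelled library and 5.21 RPM in the control (ratio 0.512, interval 0.327 to 0.773). The mutant values lay on either side of the control for ndufs3 and above it for ndufv2. Of the 7 tested core subunits, both mutants lay above the control for 2 (39.1% of all genes) and below it for 3 (33.2%), with a median of -0.17. The 26 tested accessory subunits had a median of 0.02 in the mutants, and all 33 tested members of complex I 0.01. Between the UAS:Nr2f5-labelled library and the control the median of the core subunits was -0.08 (0.05 under median-ratio scaling and 0.50 under crest-marker scaling).

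The accessory subunits, which surround the core and are needed for its assembly and stability, held 4 of the 6 members that differed by at least 2-fold between the control and the UAS:Nr2f5-labelled library. Of their 26 tested members 7.69% were at least 2-fold higher in that library and 7.69% lower, near the 6.79% and 9.17% of all genes. The acyl carrier protein of complex I has copies ndufab1a and ndufab1b. The level of ndufab1a was 4.51 and 3.13 RPM in the mutants, 1.38 RPM in the UAS:Nr2f5-labelled library and 5.64 RPM in the control, that is 4.08-fold higher in the control than in the UAS:Nr2f5-labelled library (interval 2.37 to 7.63). The level of ndufab1b was 5.29 and 5.03 RPM in the mutants, 10.2 RPM in the UAS:Nr2f5-labelled library and 4.48 RPM in the control, a ratio of 2.27 (1.74 to 2.96) between UAS:Nr2f5 and control. The copies thus lay on opposite sides of the control in that library. As a share of the reads of both copies, ndufab1b took 54.0% and 61.6% in the mutants, 88.0% in the UAS:Nr2f5-labelled library (Clopper-Pearson interval 80.7% to 93.3%) and 44.2% in the control (38.55% to 50.01%). Both copies had whole implied reads in every library, and reads from a stretch alike in both copies could still have been counted for either.

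Of the other accessory subunits, ndufa5 had 2.64 and 2.65 RPM in the mutants, 0.592 RPM in the UAS:Nr2f5-labelled library and 2.81 RPM in the control. This gene passed the filter on low values only through the other libraries, so its low value in the UAS:Nr2f5-labelled library is not read as a result. That library was lowest, and the control was 4.74-fold above it (interval 2.09 to 13.3). The converse held for ndufa12, with 3.38 and 1.59 RPM in the mutants, 6.27 RPM in the UAS:Nr2f5-labelled library and 2.14 RPM in the control (ratio 2.93, interval 2.02 to 4.19), a gene for which some libraries hold fractional reads. Similarly, ndufb5 had 6.12 and 4.14 RPM in the mutants, 8.69 RPM in the UAS:Nr2f5-labelled library and 4.61 RPM in the control (ratio 1.89, interval 1.43 to 2.48). The mutants lay apart from the control in 1 direction for ndufb7, at 2.90 and 4.98 RPM in the mutants, 1.48 RPM in the UAS:Nr2f5-labelled library and 1.6 RPM in the control, the largest mutant excess of any member, which did not pass the test (adjusted p = 0.452, limma). Differences were small for ndufa8 (7.19 and 7.10 RPM in the mutants, 6.02 RPM in the UAS:Nr2f5-labelled library and 6.38 RPM in the control), and ndufb9 and ndufb10 lay slightly below the control in both mutants (-0.15 and -0.33).

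Complex II, the succinate dehydrogenase that also belongs to the citrate cycle, had members on both sides of the control. Its flavoprotein subunit sdha had 12.9 and 14.2 RPM in the mutants, 8.0 RPM in the UAS:Nr2f5-labelled library and 14.6 RPM in the control. The UAS:Nr2f5-labelled library was lowest, and the control was 1.83-fold above it (interval 1.44 to 2.34). Its iron-sulfur subunit sdhb had 6.41 and 3.26 RPM in the mutants, 11.1 RPM in the UAS:Nr2f5-labelled library and 5.94 RPM in the control, so here the UAS:Nr2f5-labelled library was highest (ratio 1.86, interval 1.46 to 2.37). The membrane anchor sdhdb had 3.48 and 4.19 RPM in the mutants, 11.4 RPM in the UAS:Nr2f5-labelled library and 6.28 RPM in the control, with the mutants lowest and the groups not overlapping.

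Set against the UAS:Nr2f5-labelled library, sdhdb fell in the mutants by 1.36 ± 0.30 (SE) on the log2 scale, with an adjusted p of 0.030 in limma, a call lost without the filter on low values. Against the control its difference of -0.59 did not pass the test (adjusted p = 0.481, limma). The other membrane anchor, sdhc, had 2.85 and 3.97 RPM in the mutants, 4.25 RPM in the UAS:Nr2f5-labelled library and 3.87 RPM in the control, with the control between the mutants. For the second copy sdhda the table lists 0 in every library, and since the reference table gives both copies the name SDHD, the copy meant by sdhdb is as the deposited table has it. In the UAS:Nr2f5-labelled library the flavoprotein gene was thus below the control. By point values the genes of the other 3 detected subunits were above it. For sdhc the ratio between UAS:Nr2f5 and control was 1.096, and its counting interval (0.7537 to 1.568) included 1. The count was thus 3 higher (42.4% of all genes) and 1 lower (57.6%). All 4 scalings, which rescale the same libraries, gave this count.

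Complex III, the cytochrome bc1 complex, summed to 73.6 and 83.7 RPM in the mutants, 100.1 RPM in the UAS:Nr2f5-labelled library and 89.4 RPM in the control, with both mutants lowest. All 7 members were tested, and in both mutants 5 were under the control (33.2% of all genes) and 2 (uqcrb and uqcrq) over it (39.1%). The Rieske iron-sulfur protein uqcrfs1 had 14.1 and 19.8 RPM in the mutants, 22.1 RPM in the UAS:Nr2f5-labelled library and 21.3 RPM in the control. The hinge protein uqcrh, which sits beside cytochrome c1, had 8.11 and 11.3 RPM in the mutants, 12.6 RPM in the UAS:Nr2f5-labelled library and 13.1 RPM in the control. For both genes the mutants lay below the other libraries, by less than the test could call (adjusted p = 0.665 and 0.603 against the control, limma).

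Of the core proteins of complex III, uqcrc1 had 18.5 and 17.2 RPM in the mutants, 23.8 RPM in the UAS:Nr2f5-labelled library and 19.3 RPM in the control. Its ratio between UAS:Nr2f5 and control was 1.23 (interval 1.06 to 1.435). Of the copies of the second core protein, uqcrc2b held 55.8% and 55.8% of their joint reads in the mutants, 60.0% in the UAS:Nr2f5-labelled library and 52.9% in the control, with overlapping counting intervals. The ratio between UAS:Nr2f5 and control was 1.26 (interval 1.05 to 1.5) for uqcrc2b and 0.942 (0.764 to 1.16) for uqcrc2a. The quinone-binding subunit uqcrb had 5.03 and 6.79 RPM in the mutants, 7.80 RPM in the UAS:Nr2f5-labelled library and 4.81 RPM in the control, the largest excess in the UAS:Nr2f5-labelled library in this complex (ratio 1.62, interval 1.22 to 2.15). Between that library and the control the differences of the 7 members ran from -0.08 to 0.60.

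Cytochrome c was represented by cycsb alone, since cycsa was listed at 0 throughout. Its level was 11.6 and 16.2 RPM in the mutants, 21.9 RPM in the UAS:Nr2f5-labelled library and 19.1 RPM in the control. Both mutants were lowest, with differences of -0.45 from the control (adjusted p = 0.531, limma) and -0.64 from the UAS:Nr2f5-labelled library (adjusted p = 0.122, limma).

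Complex IV, the cytochrome c oxidase, held the member with the largest difference of all. Its 12 tested members had a median of -0.001 in the mutants against the control, with 6 above 0 and 6 below. The gene cox6a1, for the subunit whose other mammalian form is the muscle-type COX6A2, had 9.89 and 10.6 RPM in the mutants, 1.58 RPM in the UAS:Nr2f5-labelled library and 9.18 RPM in the control. The mutants and the control lay together, and the UAS:Nr2f5-labelled library, with 16 implied reads against 275 in the control, lay far below all of them. The control was 5.81-fold above it (interval 3.52 to 10.3), and the mutants exceeded it by 2.12 ± 0.27 (SE) on the log2 scale, with an adjusted p of 0.00876 in limma, a call lost without the filter on low values. Against the control the mutants differed by 0.14 (adjusted p = 0.892, limma). Whether the low value belongs to the condition or to the library cannot be told apart with 1 library.

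The muscle-type forms gave almost no reads. The table lists cox6a2 at 0 in every library, although the reference table pairs this entry's identifier with COX6A1. With 16 reads of cox6a1 in the UAS:Nr2f5-labelled library, a share of up to 20.6% for cox6a2 would not have been detectable there, against 1.33% in the control. The gene cox7a1 had 0 reads in both mutants and in the UAS:Nr2f5-labelled library and 2 reads in the control, beside 138 and 109 reads of its partner cox7a2a in the mutants, 77 in the UAS:Nr2f5-labelled library and 104 in the control. The gene cox8b had 9 and 10 reads in the mutants and 0 in both the UAS:Nr2f5-labelled library and the control, beside 758 and 583 reads of cox8a in the mutants, 348 in the UAS:Nr2f5-labelled library and 736 in the control. In the UAS:Nr2f5-labelled library, which had the highest summed skeletal muscle markers, cox7a1, cox8b and the entry listed as cox6a2 thus had 0 reads. A count of 0 in this shallowest library allows 0.296 RPM. Shares of up to 4.68% for cox7a1 and 1.05% for cox8b would not have been detectable there.

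The partner forms were present throughout. The level of cox7a2a was 3.97 and 4.81 RPM in the mutants, 7.60 RPM in the UAS:Nr2f5-labelled library and 3.47 RPM in the control, with the UAS:Nr2f5-labelled library highest (ratio 2.19, interval 1.61 to 2.97). A gene listed as cox7a3, which the reference table names COX7A2L, went the other way, at 3.45 and 3.26 RPM in the mutants, 1.09 RPM in the UAS:Nr2f5-labelled library and 2.34 RPM in the control (ratio 0.465, interval 0.222 to 0.883). The level of cox8a was 21.8 and 25.7 RPM in the mutants, 34.4 RPM in the UAS:Nr2f5-labelled library and 24.6 RPM in the control. The subunit cox4i1, the form found in most tissues, took 98.8% and 99.8% of the cox4 reads in the mutants, all of them in the UAS:Nr2f5-labelled library and 99.1% in the control, and its level was 23.8 and 29.1 RPM in the mutants, 30.2 RPM in the UAS:Nr2f5-labelled library and 25.9 RPM in the control.

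Among the other complex IV subunits, the copies of cox5a differed in their shares. The level of cox5aa was 12.3 and 15.6 RPM in the mutants, 24.6 RPM in the UAS:Nr2f5-labelled library and 13.3 RPM in the control, and that of cox5ab was 10.8 and 11.9 RPM in the mutants, 12.9 RPM in the UAS:Nr2f5-labelled library and 14.8 RPM in the control. As a share of both copies, cox5aa took 53.3% and 56.6% in the mutants, 65.5% in the UAS:Nr2f5-labelled library (interval 60.5% to 70.3%) and 47.4% in the control (44.0% to 50.9%). By its point values cox5aa held the larger share in the 3 libraries other than the control. Its intervals were 49.8% to 56.8% and 52.65% to 60.6% in the mutants. In the first of these and in the control neither copy was thus clearly the larger. The gene cox7c had 5.69 and 7.85 RPM in the mutants, 12.9 RPM in the UAS:Nr2f5-labelled library and 8.62 RPM in the control, with both mutants lowest. The gene cox6b1, chosen after its values were seen, had 41 and 44 implied reads in the mutants, 0 in the UAS:Nr2f5-labelled library and 20 in the control, so that the exact counting interval of the ratio between UAS:Nr2f5 and control reached up to 0.599. Its copy cox6b2 had 16.4 and 16.3 RPM in the mutants, 18.1 RPM in the UAS:Nr2f5-labelled library and 21.8 RPM in the control. The difference of cox6b2 between the mutants and the control, -0.40, did not pass the test (adjusted p = 0.457, limma).

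**Figure D3:**
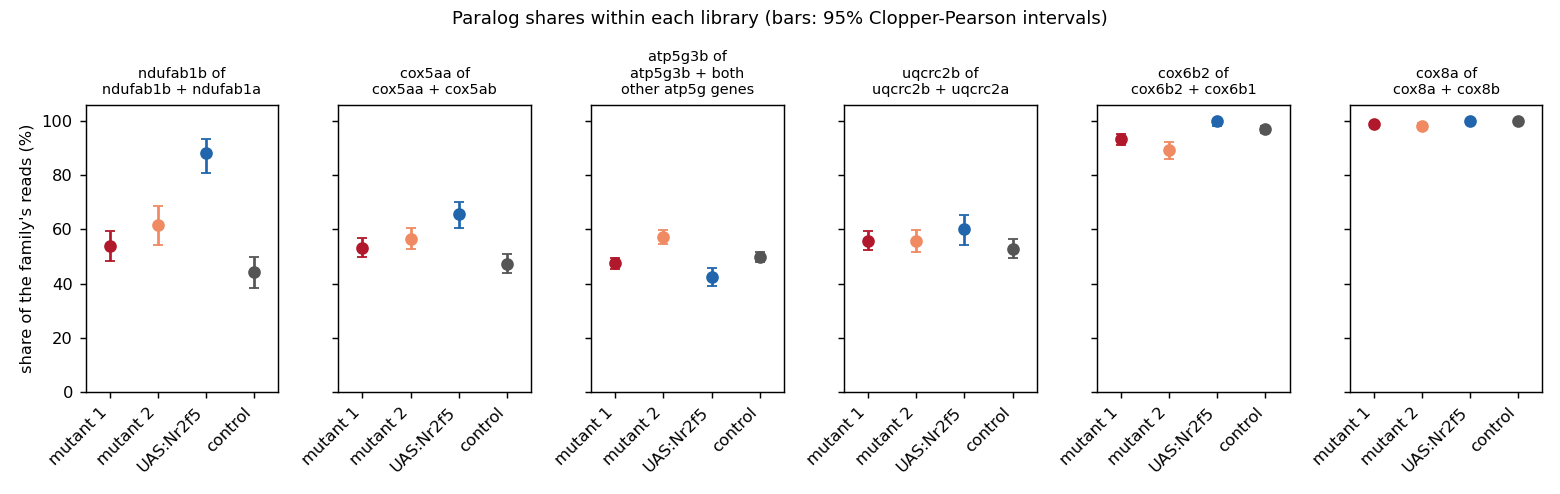
Share of a duplicated subunit's reads, in percent, taken by the named copy in each library (mutants, UAS:Nr2f5, control), with exact 95% Clopper-Pearson counting intervals as bars. The share of ndufab1b is 88.0% for UAS:Nr2f5 against 44.2% for the control, that of cox5aa 65.5% against 47.4%, and the shares of uqcrc2b overlap in all libraries.

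In complex V, the ATP synthase, most members lay on the same side of the control. Its summed level was 455 and 486 RPM in the mutants, 608 RPM in the UAS:Nr2f5-labelled library and 565 RPM in the control, so both mutants lay below both other libraries. Of 14 tested members, in both mutants 11 were under the control (33.2% of all genes) and 2 (atp5e and atp5h) over it (39.1%). The median difference was -0.26, which was negative under all 4 scalings. Between the UAS:Nr2f5-labelled library and the control 11 of 14 were higher (42.4% of all genes), with a median of 0.23 that was positive under all 4 scalings. Crest-marker scaling also moved the medians of all genes, to -0.54 in the mutants and 0.43 in the UAS:Nr2f5-labelled library. The summed markers of skeletal muscle, epidermis and endoderm, neurons, lens, pigment cells and endothelium had the same order (lowest in both mutants, highest in the UAS:Nr2f5-labelled library). Those of red blood cells, glia and heart muscle were highest in the control. Arch neural crest markers had the opposite order, highest in both mutants and lowest in the UAS:Nr2f5-labelled library. The part of any of these in this result was not tested. The differences of single genes were small, from -0.61 to 0.43 in the mutants and from -0.20 to 0.40 in the UAS:Nr2f5-labelled library. In the mutants against the control limma called 0 of the 14 (1.04% of all genes). At an unadjusted p under 0.05 limma passed 1 of them (13.2% of all genes).

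In the catalytic F1 head, the alpha subunit atp5a1 had 126 and 135 RPM in the mutants, 182 RPM in the UAS:Nr2f5-labelled library and 157 RPM in the control. The beta subunit atp5b, which holds the catalytic sites, had 113 and 127 RPM in the mutants, 144 RPM in the UAS:Nr2f5-labelled library and 154 RPM in the control. Both mutants were lowest for both genes, and the UAS:Nr2f5-labelled library lay above the control for atp5a1 and slightly below it for atp5b (ratio 0.937, interval 0.882 to 0.994), a difference of -0.09 that was 0.04 with median-ratio scaling and 0.51 with crest-marker scaling. In the central stalk, the gamma subunit atp5c1 had 26.1 and 26.7 RPM in the mutants, 35.6 RPM in the UAS:Nr2f5-labelled library and 27.9 RPM in the control. The delta subunit atp5d had 11.04 and 8.86 RPM in the mutants, 17.2 RPM in the UAS:Nr2f5-labelled library and 15.6 RPM in the control, the lowest difference of any member in the mutants at -0.61 (adjusted p = 0.344, limma). The small epsilon subunit atp5e differed from them, at 5.98 and 9.26 RPM in the mutants, 7.31 RPM in the UAS:Nr2f5-labelled library and 5.30 RPM in the control, where its implied reads were fractional.

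The c-ring of the membrane part, through which protons pass, is encoded by 3 members, whose mammalian counterparts encode the same mature protein. The level of atp5g3a was 18.7 and 15.2 RPM in the mutants, 29.4 RPM in the UAS:Nr2f5-labelled library and 24.0 RPM in the control. Both mutants were lowest, and against the UAS:Nr2f5-labelled library this gene fell by 0.77 ± 0.21 (SE) on the log2 scale, with an adjusted p of 0.049 in limma, a call lost with a pseudocount of 0.1, without the filter on low values and without the mean trend. Against the control its difference was -0.49 (adjusted p = 0.397, limma). The level of atp5g3b was 33.5 and 38.6 RPM in the mutants, 39.9 RPM in the UAS:Nr2f5-labelled library and 43.3 RPM in the control. It took 47.6% and 57.2% of the c-ring reads in the mutants, 42.4% in the UAS:Nr2f5-labelled library and 49.8% in the control, so the 2 mutants lay on either side of the control.

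Of the peripheral stalk, the subunit atp5o, which joins the stalk to the head, had 23.1 and 23.5 RPM in the mutants, 24.1 RPM in the UAS:Nr2f5-labelled library and 27.8 RPM in the control. The subunit atp5h had 24.3 and 20.02 RPM in the mutants, 23.5 RPM in the UAS:Nr2f5-labelled library and 19.6 RPM in the control, with the control lowest. The small subunit atp5ia, chosen after its values were seen, had 36 and 13 implied reads in the mutants, 0 in the UAS:Nr2f5-labelled library and 23 in the control (interval of the ratio between UAS:Nr2f5 and control up to 0.514), while its copy atp5ib was detected in all libraries at 2.76 and 3.70 RPM in the mutants, 5.63 RPM in the UAS:Nr2f5-labelled library and 4.14 RPM in the control.

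Of the 11 assembly factors, 5 were tested. Their summed level was 14.8 and 15.96 RPM in the mutants, 8.45 RPM in the UAS:Nr2f5-labelled library and 14.1 RPM in the control, so the UAS:Nr2f5-labelled library was lowest, unlike for all members summed, where it was highest. A list of 35 assembly factors outside the symbol rule summed to 76.1 and 84.4 RPM in the mutants, 74.2 RPM for UAS:Nr2f5 and 78.3 RPM in the control. Over the 18 tested in that list the median of UAS:Nr2f5 minus control was -0.12, near the -0.11 of all genes. The factor sdhaf2, which attaches the flavin to succinate dehydrogenase, had 1.32 and 1.63 RPM in the mutants, 0.395 RPM in the UAS:Nr2f5-labelled library and 1.84 RPM in the control (4.65-fold higher in the control, interval 1.72 to 17.7), and with median-ratio or crest-marker scaling its difference no longer reached 2-fold. It passed the filter on low values only through the mutants and the control, so its low value is not read as a result. The complex I factor ndufaf5 had 1.87 and 1.76 RPM in the mutants, 0.987 RPM in the UAS:Nr2f5-labelled library and 2.04 RPM in the control. Between the UAS:Nr2f5-labelled library and the control 4 of the 5 tested factors were lower (3 under each of the other scalings), where 57.6% of all genes were. Their median was -0.52, and -0.24 with crest-marker scaling. Count and median include factors that passed the filter only through the other libraries. Low genes in that library rest on few reads: 16 members had 0 reads there, against 6 and 11 in the mutants and 8 in the control. At the filter's edge, cox6b1 (mean 0.947 RPM), ndufaf6 (0.906) and ndufa4l2a (0.756) stayed out, while ndufa1 (1.1), ndufaf4 (1.15) and sdhaf2 (1.3) entered.

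The mitochondrial genome encodes 13 further subunits of the same complexes, all of them listed. Their summed level was 1415 and 1197 RPM in the mutants, 1517 RPM in the UAS:Nr2f5-labelled library and 1025 RPM in the control, with the control lowest. For the complex IV subunit mt-co1 the values were 669 and 577 RPM in the mutants, 694 RPM in the UAS:Nr2f5-labelled library and 478 RPM in the control. For mt-co3 they were 207 and 180 RPM in the mutants, 247 RPM in the UAS:Nr2f5-labelled library and 143 RPM in the control. Thus the mutants lay above the control for both genes, unlike for most nuclear subunits of complex V, but with crest-marker scaling their differences were -0.33 and -0.27. In limma 0 of the 12 tested genes were called in the mutants against the control (1.04% of all genes), and 1 passed at an unadjusted p under 0.05 (13.2% of all genes). In the UAS:Nr2f5-labelled library 10 of 12 were higher than in the control (42.4% of all genes), with a median of 0.51. The median of the mutants against the control was 0.19 (-0.46 with crest-marker scaling, under which the median of all genes was -0.54).

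Of the citrate cycle and the pyruvate dehydrogenase, which supply the electrons, 19 of 20 genes were tested. Against the control limma called 0 of them in the mutants, where 1.04% of all genes were called (2 at an unadjusted p under 0.05, where 13.2% of all genes passed), and it called 2 lower than in the UAS:Nr2f5-labelled library, near the 8.92% of all genes that were. These were mdh2, the mitochondrial malate dehydrogenase, with 18.5 and 17.8 RPM in the mutants, 34.8 RPM in the UAS:Nr2f5-labelled library and 27.7 RPM in the control (difference from UAS:Nr2f5 -0.90 ± 0.18 SE, adjusted p = 0.0239, limma), and dlst, a subunit of the 2-oxoglutarate dehydrogenase, with 13.1 and 13.9 RPM in the mutants, 24.98 RPM in the UAS:Nr2f5-labelled library and 16.6 RPM in the control (-0.84 ± 0.19 SE, adjusted p = 0.0336, limma). Both mutants were lowest for both genes, and both calls were lost without the filter on low values and without the mean trend. The summed level of the list was 299 and 314 RPM in the mutants, 374 RPM in the UAS:Nr2f5-labelled library and 337 RPM in the control, the same order as for the oxidative phosphorylation genes.

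The mitochondrial ribosome and import machinery did not share that order. The 71 ribosomal protein genes summed to 204 and 205 RPM in the mutants, 195 RPM in the UAS:Nr2f5-labelled library and 199 RPM in the control. The 20 import genes summed to 93.3 and 86.7 RPM in the mutants, 68.5 RPM in the UAS:Nr2f5-labelled library and 96.6 RPM in the control, with the UAS:Nr2f5-labelled library lowest. Of 65 ribosomal genes tested, 4 rose and 2 fell in the mutants against the UAS:Nr2f5-labelled library in limma (11.2% and 8.92% of all genes). Against the control none of the 65 was called in limma (1.04% of all genes), and 1 passed at an unadjusted p under 0.05 (13.2% of all genes).

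Of the regulators of mitochondrial biogenesis, 12 of 17 genes were tested, and limma called 2 higher and 1 lower in the mutants than in the UAS:Nr2f5-labelled library, where 11.2% and 8.92% of all genes were called. The transcription factor nrf1, a regulator of many nuclear respiratory genes, had 20.7 and 26.1 RPM in the mutants, 11.4 RPM in the UAS:Nr2f5-labelled library and 20.8 RPM in the control (0.97 ± 0.22 SE against UAS:Nr2f5, adjusted p = 0.0315, limma). The mitochondrial RNA polymerase POLRMT had 7.27 and 8.42 RPM in the mutants, 2.57 RPM in the UAS:Nr2f5-labelled library and 5.31 RPM in the control (1.31 ± 0.30 SE, adjusted p = 0.0337, limma). For both, the UAS:Nr2f5-labelled library was lowest. Both calls were lost without the filter on low values and with median-ratio scaling, that of nrf1 also with a pseudocount of 0.1 and without the mean trend. With crest-marker scaling the difference was -0.26 for nrf1, the opposite direction, and 0.25 for POLRMT (adjusted p = 0.428, limma). The coactivator ppargc1a, known for its part in muscle mitochondria, was highest there, with 0.230 and 0.176 RPM in the mutants, 2.86 RPM in the UAS:Nr2f5-labelled library and 1.4 RPM in the control. It passed the filter on low values only through the UAS:Nr2f5-labelled library, so its call, the 1 lower above, is not read as a result. The mitochondrial DNA-binding factor tfam had 4.77 and 7.50 RPM in the mutants, 2.27 RPM in the UAS:Nr2f5-labelled library and 6.95 RPM in the control, and did not pass the test against UAS:Nr2f5 (adjusted p = 0.0832, limma, and 0.0112 with a filter at a mean of 5 RPM).

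Among the carriers that exchange substrates with the cytosol, slc25a4, in mammals the heart and muscle form of the adenine nucleotide carrier, was ordered across the libraries as the summed skeletal muscle markers were. It had 0.144 and 0.441 RPM in the mutants, 23.6 RPM in the UAS:Nr2f5-labelled library and 6.05 RPM in the control, and the groups lay far apart. In the mutants it fell against the UAS:Nr2f5-labelled library by 4.26 ± 0.37 (SE) on the log2 scale (adjusted p = 0.00372, limma), and its difference of -2.46 from the control had an adjusted p of 0.0530 in limma. Without the filter on low values that call was lost (adjusted p = 0.116, limma). The gene passed the filter only through the UAS:Nr2f5-labelled and control libraries, so its call is not read as a result. The ratio between UAS:Nr2f5 and control was 3.90 (interval 3.21 to 4.76). The form slc25a5 had 328 and 342 RPM in the mutants, 371 RPM in the UAS:Nr2f5-labelled library and 354 RPM in the control. Of the 26 tested skeletal muscle markers, limma called 25 lower in the mutants than in the control (1.01% of all genes), with a median of -4.40. In the UAS:Nr2f5-labelled library 25 were at least 2-fold higher than in the control (6.79% of all genes), with a median of 1.75. The 26 include markers that passed the filter only through the UAS:Nr2f5-labelled and control libraries, which bears on both counts. The oxidative phosphorylation genes had medians of -0.11 and 0.13 in the same comparisons.

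**Figure D4:**
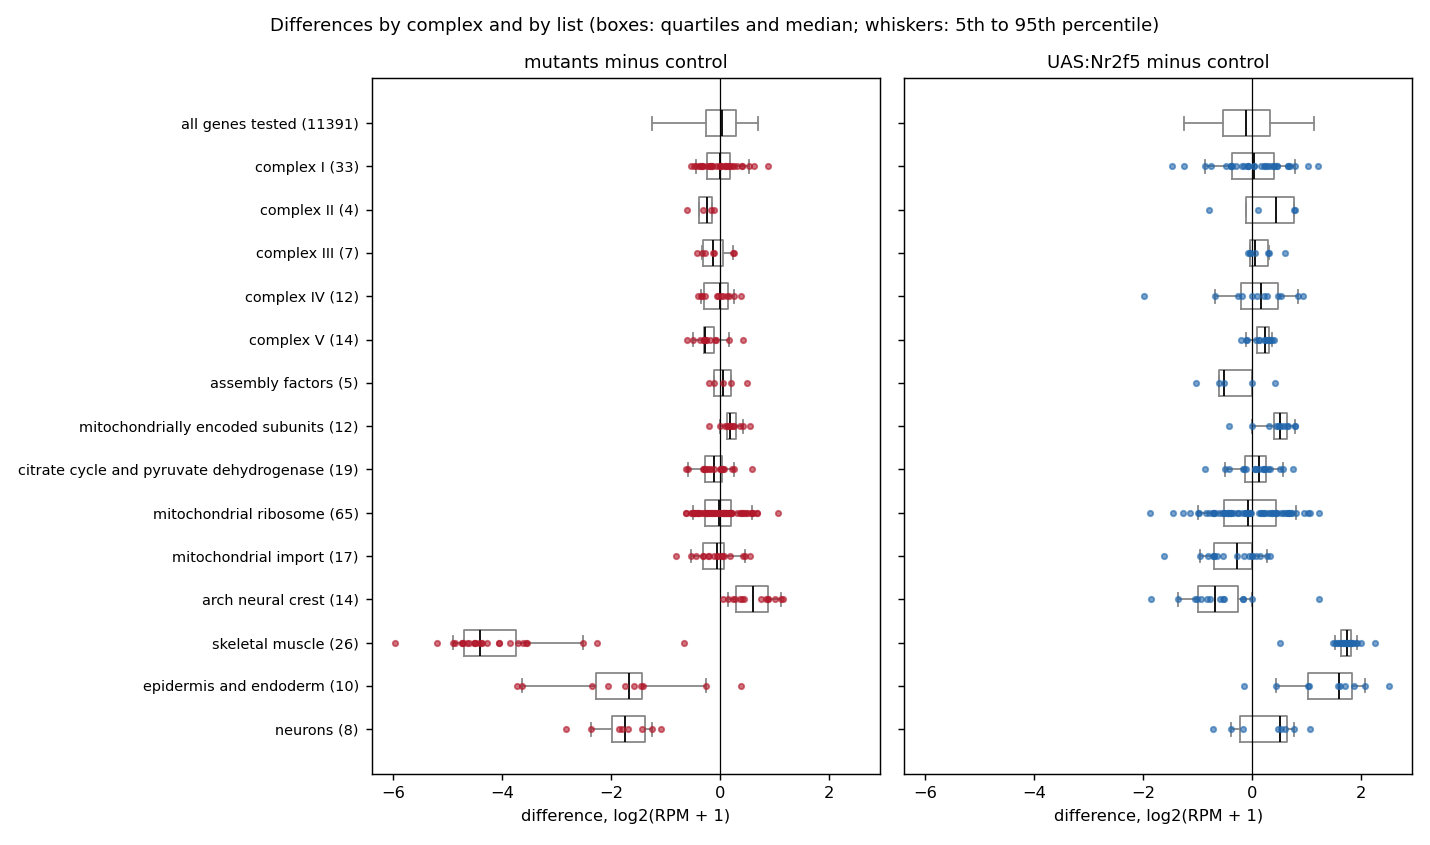
Differences in log2(RPM + 1) on the horizontal axis for all tested genes, for each complex and for the other gene lists down the page, in mutants minus control (left) and UAS:Nr2f5 minus control (right); points are genes, boxes span the quartiles with the median as a line, and whiskers run from the 5th to the 95th percentile of genes. The complexes lie within 1 unit of 0 in the mutants, while the skeletal muscle markers have a median of -4.40.

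The symbol rule misses subunits that the table lists under other names, and 12 such entries were found through the reference table after the values were seen. Of these, 8 were tested, with a median of -0.15 in the mutants against the control and -0.35 for UAS:Nr2f5 minus control (0.13 with crest-marker scaling). The gene listed as USMG5, a small ATP synthase subunit, had 3.08 and 1.81 RPM in the mutants, was listed at 0 in the UAS:Nr2f5-labelled library and had 2.14 RPM in the control. It was higher in the mutants than in the UAS:Nr2f5-labelled library (adjusted p = 0.0292, limma), by a fitted difference of 1.76 ± 0.38 (SE). That difference depends on the pseudocount, and the call was lost without the filter on low values. The gene passed that filter through the mutants and the control alone, so its call is not read as a result. The complex III subunit UQCR10 had 5.69 and 3.0 RPM in the mutants, 2.96 RPM in the UAS:Nr2f5-labelled library and 4.88 RPM in the control, with the control between the 2 mutants.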

How the data were processed

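RNA-seq values of 4 libraries were analysed from 1 deposited table. Per the submitters' processing notes the tools were TopHat2 and Partek, with the genome build GRCz10; the roles of the tools are not given in the sources used here. The authors deposited values named TPM, but within each library 88.4% to 94.0% of low values were whole multiples (within 0.02 reads) of 1 common step, with no division by gene length, so they are read here as RPM, and the scale to 1000000 reads is an assumption. Columns sum to 14.8% to 15.8% of 1000000. Recovered steps gave implied reads, 34787205 and 22677740 in the mutants, 10127924 for UAS:Nr2f5 and 29943427 for the control, of which 5286229, 3590905, 1498321 and 4467229 were in genes. A count of 0 allows 3 reads, that is 0.0862 and 0.132 RPM in the mutants, 0.296 RPM for UAS:Nr2f5 and 0.100 RPM for the control.

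Genes averaging 1 RPM or more were fitted in limma 3.58.1 (R 4.3.3) on log2(RPM + 1), with 1 mean per group and a mean trend, Benjamini-Hochberg adjustment over all genes and a threshold of 0.05. The 1 residual degree of freedom comes from the mutant pair, so the other libraries are assumed to vary as the mutants do. Folds on this scale understate changes of low genes. UAS:Nr2f5 against control was described by a 2-fold size rule and 95% exact intervals, which cover counting error only (scipy 1.17.1). The limma step was run on simulated data with a fixed dispersion and no cell type differences between libraries. That run does not test the calls reported here. The 2 mutants differed by more than sampling noise (chi-square per gene 10.4 over 13823 genes).

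Members and lists were chosen with earlier results of these data known. Genes named are those called, those with the largest differences in each direction per complex among members averaging 5 RPM or more, those at 0 throughout and the muscle-type paralogs with their partners; any other member or context gene in the text was chosen after its values were seen. Alternatives tried were the pseudocount, the filter, the scaling, the trend and leaving out each mutant. Levels of different genes are not compared, since no transcript lengths were used. The values of 1 tested member are not reported here by name, but it is included in counts, medians and sums.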

Additional observations from a re-analysis of the deposited data

How the results depend on the processing

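No paired analysis was possible because the UAS:Nr2f5 and control groups have 1 library each and the labels pair no samples. In the mutants against the control limma called 0 members under each alternative run. Between the mutants and the UAS:Nr2f5-labelled library, the calls of 1 higher and 2 lower became 0 and 0 without the filter on low values, 3 and 10 with a filter at a mean of 5 RPM, 2 and 1 without the mean trend, 1 lower with a pseudocount of 0.1, 4 lower with column-sum scaling and 52 lower with crest-marker scaling. The members at least 2-fold higher and lower in both mutants than in UAS:Nr2f5 (3 and 2) became 6 higher with a pseudocount of 0.1, 1 and 0 with a pseudocount of 5, 1 and 1 with the filter at 5, and 1 and 50 with crest-marker scaling, which also made 5 members at least 2-fold lower in both mutants than in the control. Leaving out a mutant gave 5 to 6 higher and 3 to 5 lower against UAS:Nr2f5, and 0 to 1 higher against the control. For UAS:Nr2f5 against the control, 2 higher and 4 lower became 0 and 1 with a pseudocount of 5, 1 and 1 with the filter at 5, and 14 higher with crest-marker scaling. Other settings changed these counts too. Shares of all genes called or past 2-fold under each alternative are not given here. The counts are thus not read as results about the members. With median-ratio scaling and with a pseudocount of 0.1, cox7a2a reached 2-fold higher. With median-ratio or crest-marker scaling, sdhaf2 no longer reached 2-fold lower. Median differences moved to -0.70 (mutants against control), -1.42 (mutants against UAS:Nr2f5) and 0.68 (UAS:Nr2f5 against control) with crest-marker scaling, under which the medians of all genes were -0.54, -0.98 and 0.43; to -0.39 and 0.26 in the comparisons with UAS:Nr2f5 under median-ratio scaling; and to 0.00 for UAS:Nr2f5 against control without the filter. Crest-marker scaling left 1190 of all 11815 genes tested above 0 against the control and 1388 against UAS:Nr2f5. Under crest-marker scaling the mutant minus control difference was above 0 for 4 of the 76 tested members, against 30 on the deposited scale. Among genes named in the text it became negative, from a value that limma had not called, for atp5e (-0.18), atp5h (-0.51), cox4i1 (-0.66), cox5aa (-0.60), cox6a1 (-0.49), cox7a2a (-0.29), cox7b (-0.46), ndufa10 (-0.56), ndufa8 (-0.47), ndufab1b (-0.41), ndufb5 (-0.46), ndufs1 (-0.48), ndufs3 (-0.58), ndufv2 (-0.38), uqcrb (-0.35), uqcrq (-0.28), cox7a3 (-0.13), ndufa12 (-0.37), ndufaf4 (-0.27), nrf1 (-0.52), POLRMT (-0.13), USMG5 (-0.37), mt-co1 (-0.33) and mt-co3 (-0.27). Against UAS:Nr2f5 the members above 0 went to 9, against 24, and named genes that became negative were atp5e (-1.14), cox7b (-1.12), ndufa10 (-0.82), ndufa8 (-0.93), ndufs7 (-0.91), ndufv2 (-0.070), sdha (-0.51), uqcrq (-0.73), ndufaf5 (-0.26) and nrf1 (-0.26), of which limma had called nrf1. Median-ratio scaling gave -0.0072 for cox4i1 and -0.015 for ndufs3 against the control, and -0.12 for atp5e and -0.081 for cox7b against UAS:Nr2f5. Column-sum scaling gave -0.033 for cox4i1 and -0.038 for ndufs3 against the control, and -0.034 for atp5e against UAS:Nr2f5. For UAS:Nr2f5 minus control, 10 of the 76 members changed sign with median-ratio scaling, 2 with column-sum scaling and 21 with crest-marker scaling, none of them from a 2-fold difference. The cause was not tested. Depth limits the UAS:Nr2f5-labelled library most, where 33 of 98 members had under 20 implied reads.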
